A study of Mus musculus with 2 samples.

Results

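The genes described here are the monocyte chemoattractants Ccl2, Ccl7, Ccl8 and Ccl12 and the receptor Ccr2, which were taken by name as 5 of the 35208 gene rows of a single-cell RNA-seq matrix of allergic mouse skin. All 5 genes held reads. Cells came from the ears of BALB/c mice with IgE-dependent, long-lasting allergic inflammation (IgE-CAI), for which 300 µg of IgE against the hapten TNP was given intravenously and 10 µg of TNP-OVA was injected into the ear skin the next day. The 4 groups were WT BALB/c mice on day 3, WT on day 5, Ccr2-/- BALB/c mice on day 3 and Ccr2-/- on day 5 after the challenge. Per the methods, the mice were young adult males and the Ccr2-/- line carried the Ccr2tm1Mae allele, a germline knockout, so that blood, skin and vessel cells all lacked the receptor. Each group was 1 pool of cells marked by its own hashtag antibody. The number of mice in a pool was not given, and a challenged ear without IgE or an untreated ear was not analysed here. The comparison asks in which cells the ligand transcripts were higher when the receptor was absent.

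Ccl2, Ccl7, Ccl8 and Ccl12 are small secreted proteins of the CC chemokine family, named after their adjacent cysteines. CCL2, CCL7 and CCL12 bind CCR2, a G protein-coupled receptor that classical monocytes use to leave the bone marrow and enter inflamed tissue. Mouse CCL8 is best known as a ligand of CCR8 on T cells, and human CCL8 also binds CCR2. Monocytes, macrophages, fibroblasts and endothelial cells are all known sources of these ligands, and the receptor also takes up and clears ligand that it has bound. Atypical receptors such as ACKR1 and ACKR2 bind the same ligands without the usual signalling.

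On the GRCm38 assembly (RefSeq gene positions) the 4 ligand genes lie close together within 81223 bases of chromosome 11. They are at chr11:82035577-82037452 for Ccl2, chr11:82045712-82047525 for Ccl7, chr11:82101845-82103399 for Ccl12 and chr11:82115185-82116799 for Ccl8. Ccr2 lies at chr9:124101918-124109140. The coding sequences around the paired cysteines, which give the family its name, are shown because reads of near-identical genes could be exchanged in counting. Each stretch of 66 bases (GENCODE vM21 annotation) is read along the coding strand and has the 2 cysteine codons in capitals. Each spans an intron, and the genomic ends are chr11:82035731-82036541, chr11:82045850-82046573, chr11:82115300-82116091 and chr11:82101966-82102669 in the order shown.
Ccl2: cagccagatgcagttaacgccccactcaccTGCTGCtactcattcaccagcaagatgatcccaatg
Ccl7: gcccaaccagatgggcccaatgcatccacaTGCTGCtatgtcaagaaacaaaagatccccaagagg
Ccl8: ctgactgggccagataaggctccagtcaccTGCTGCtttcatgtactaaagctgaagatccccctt
Ccl12: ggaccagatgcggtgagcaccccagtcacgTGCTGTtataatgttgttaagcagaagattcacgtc
The 4 coding sequences were 64.6% (Ccl7 and Ccl8) to 70.8% (Ccl8 and Ccl12) identical, and the longest run of bases that any 2 of their transcripts shared was 23 (Ccl2 and Ccl7).

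Promoter sequence in the RefSeq table (GRCm38.p6) matched 3 of the 5 genes, Ccl8, Ccl12 and Ccr2. The 250 bases before the start of Ccl12 (chr11:82101595-82101844, plus strand) and of Ccl8 (chr11:82114935-82115184, plus strand) are shown because these were the 2 ligands whose reads lay mainly in macrophages of WT skin, with letters like a TATA box in capitals.
Ccl12: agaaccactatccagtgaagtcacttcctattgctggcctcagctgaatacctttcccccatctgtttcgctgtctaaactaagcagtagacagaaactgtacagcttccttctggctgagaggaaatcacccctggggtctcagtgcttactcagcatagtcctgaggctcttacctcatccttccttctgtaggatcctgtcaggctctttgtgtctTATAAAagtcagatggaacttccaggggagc
Ccl8: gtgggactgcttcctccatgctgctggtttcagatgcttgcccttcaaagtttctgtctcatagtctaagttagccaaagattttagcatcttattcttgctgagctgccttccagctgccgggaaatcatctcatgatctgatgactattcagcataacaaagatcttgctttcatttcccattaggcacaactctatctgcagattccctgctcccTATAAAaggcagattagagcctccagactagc
The letters TATAAA began 31 bases before the start in Ccl12 and 32 bases before it in Ccl8, and 12.4% of 32851 promoter windows of this length held them on either strand. The other letters searched on both strands were GGGA, any 3 bases and TCC (a kappaB-like motif, in 3.86% of windows), TTTC, any 2 bases and TTTC (like an interferon-stimulated response element, 2.98%), TTCNNNGAA (like a STAT site, 7.02%) and TGANTCA (like an AP-1 site, 6.75%). None of these 4 was found in the windows of Ccl8, Ccl12 or Ccr2, which says only that these letters are not there. The Ccr2 window (chr9:124101933-124102182, plus strand) lies within the gene coordinates given above, not before them.

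The matrix held 8953 barcodes and 548117598 reads, of which 7118 barcodes were given to 1 pool and kept. WT day 3 had 1543 cells, WT day 5 had 1037, Ccr2-/- day 3 had 2191 and Ccr2-/- day 5 had 2347, with 68064673 to 162572556 reads per pool and a median of 18632 to 48232 reads per cell. Levels are given as reads of a gene per 1000000 reads (CPM), summed over the cells of a type in a pool. Values said to be in pool order give the WT pools of days 3 and 5 first and the Ccr2-/- pools of days 3 and 5 after them. With 1 pool per genotype and day there was no test within a day. The genotypes were compared over both days by edgeR's quasi-likelihood test with day as a covariate, which had 1 residual degree of freedom, and a gene was called at a Benjamini-Hochberg adjusted p under 0.05 over all genes tested in that cell type. Cell types carry "-like" because they were named from transcripts. A read of a ligand was also found in cells that are not known as its source. At an equal depth of 10000 reads per cell, 20% to 30.6% of NK cell-like cells and 33.3% to 44.4% of neutrophil-like cells had a Ccl2 read in the 4 pools, at 47.1 to 58.8 CPM and 73.4 to 139 CPM. Ccl2 levels near these values are background and are read as no expression.

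Ccr2 reads checked the labels. Over all cells Ccr2 was at 358 CPM in WT day 3, 350 in WT day 5, 13.5 in Ccr2-/- day 3 and 11.8 in Ccr2-/- day 5, so that the Ccr2-/- pools held 3.77% and 3.37% of the WT level on days 3 and 5. Both Ccr2-/- pools were far below both WT pools. In monocyte-macrophage-like (Mo-Mac-like) cells the Ccr2 level was 952, 670, 50.5 and 25.5 CPM in the same order. The test found a log2 difference of -4.42 ± 0.21 (SE; edgeR adjusted p = 0.00419, range 1.51e-70 to 0.0611 over 13 other settings). Of 16325 genes tested in these cells, 0.0551% were called lower.

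In WT skin the receptor was read mainly in Mo-Mac-like and dendritic cell-like (DC-like) cells, and at like levels in T cell-like and NK cell-like cells. Mo-Mac-like cells held 74.6% and 73.9% of the Ccr2 reads of the WT day 3 and day 5 pools, and DC-like cells held 15.3% and 18.1%. In DC-like cells it was at 772, 881, 197 and 124 CPM in pool order, both Ccr2-/- pools being below both WT pools. Their Ccr2 fell by 2.40 on the log2 scale (-2.40 ± 0.24 SE, edgeR adjusted p = 0.0331, range 5.25e-19 to 0.218 over 10 other settings), and 0.0149% of 13439 genes were called lower. T cell-like Ccr2 was at 626, 1020, 137 and 116 CPM, and it fell as well (log2 -2.64 ± 0.36 SE, edgeR adjusted p = 6.35e-06), with 0.0377% of 10610 genes called lower. This call was lost with the hashtag ratio of 10, with thinning and with gating of single cells (edgeR adjusted p = 0.0834, 0.0921 and 0.0835), and the log2 difference was -2.59 to -2.97 over the 10 other settings. NK cell-like Ccr2 was at 347, 786, 59.1 and 62.7 CPM, and this difference did not pass the test (log2 -3.06 ± 0.33 SE, edgeR adjusted p = 0.391). The reads left in Ccr2-/- cells were uneven. A single cell held 43.9% of the Ccr2 reads of the Ccr2-/- day 3 Mo-Mac-like cells and 47.6% of those of the DC-like cells. Which bases the allele removes was not given in the sources used here, so reads of sequence that remains cannot be told apart from reads carried over from WT cells.

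In WT skin Ccl2 and Ccl7 lay mainly in fibroblast-like and Mo-Mac-like cells, and Ccl8 and Ccl12 mainly in Mo-Mac-like cells. Fibroblast-like cells (329 on day 3 and 269 on day 5) held 50.4% and 64.5% of the Ccl2 reads, and Mo-Mac-like cells (423 and 420) held 37.9% and 27.7%. For Ccl7 the shares were 38.2% and 59.1% in fibroblast-like cells and 48.7% and 32.0% in Mo-Mac-like cells. Ccl8 lay in Mo-Mac-like cells, with 78.6% and 92.6% of its reads. Ccl12, which in the mouse is also called MCP-5, had 85.8% and 94.1% of its reads in the same cells. Fibroblast-like cells held 10.9% and 2.76% of the Ccl8 reads and 1.01% and 0.881% of the Ccl12 reads.

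Mast cell-like cells, though few, carried Ccl7 at a high level. Their Ccl7 was at 4593 CPM in WT day 3 (10 cells), 3508 in WT day 5 (10 cells), 6897 in Ccr2-/- day 3 (58 cells) and 3593 in Ccr2-/- day 5 (35 cells). The WT values overlapped with the Ccr2-/- values, and no difference passed the test (edgeR log2 0.37 ± 0.31 SE, adjusted p = 1.0, range 0.979 to 1.0 over 9 other settings). They held 0.716% to 3.8% of the Ccl7 reads of a pool. Ccl8 in these cells was at 55.4 to 61.2 CPM in 3 pools, near its 38.4 to 61.4 CPM in NK cell-like cells, and at 362 CPM in WT day 5, where 1 cell held 91.2% of the reads.

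**Figure D1:**
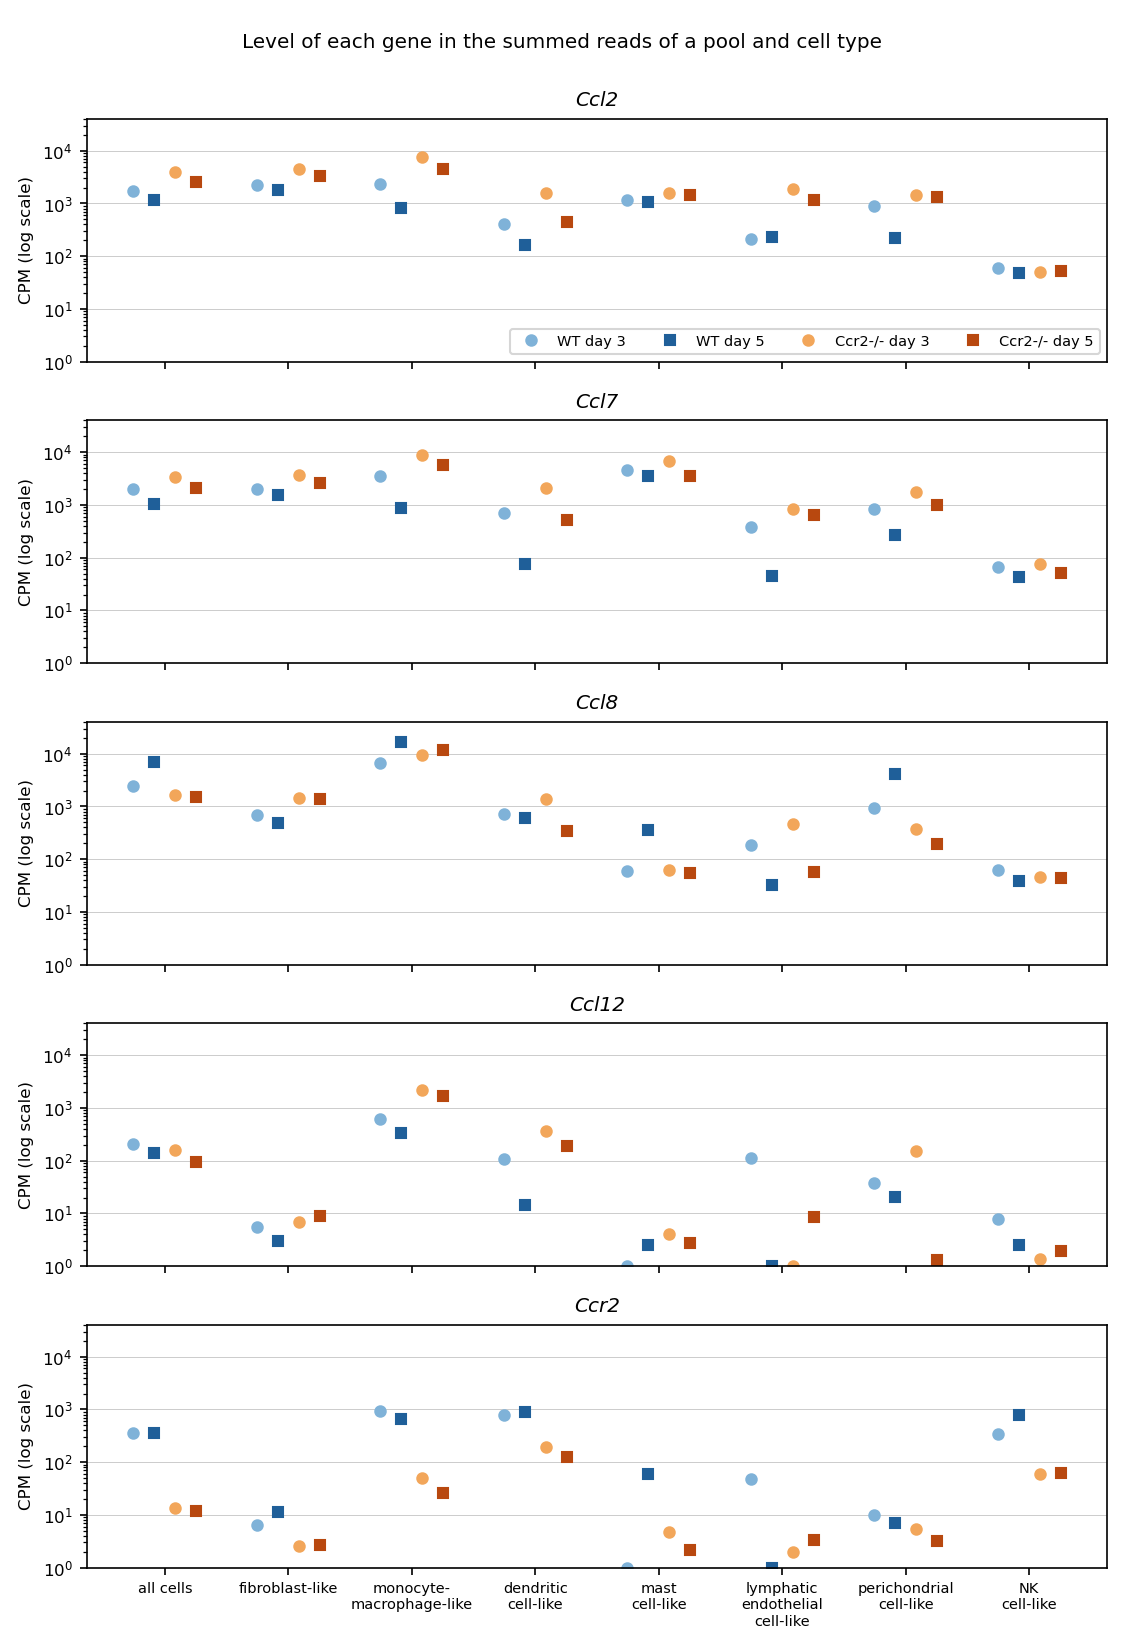
Level of each of the 5 genes (CPM of summed reads, log axis; values under 1 CPM are drawn at 1) over all cells and in 7 cell types, with 1 point for each of the 4 pools. Ccl8 and Ccl12 are highest in monocyte-macrophage-like cells in all 4 pools, at 6706 to 16948 CPM and 341 to 2177 CPM, and Ccr2 of these cells is at 50.5 and 25.5 CPM in Ccr2-/- against 952 and 670 CPM in WT.

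Over all cells of a pool, Ccl2 and Ccl7 were higher in both Ccr2-/- pools than in both WT pools, and Ccl8 and Ccl12 were lower within each day. Ccl2 was at 1721 CPM in WT day 3, 1154 in WT day 5, 3905 in Ccr2-/- day 3 and 2505 in Ccr2-/- day 5. These were 2.27-fold (95% counting interval 2.26 to 2.28) and 2.17-fold (2.15 to 2.19) differences on days 3 and 5. Ccl7 was at 1998, 1062, 3438 and 2122 CPM in the same order, 1.72-fold and 2.0-fold higher in Ccr2-/-. Ccl8 was at 2393, 7072, 1665 and 1522 CPM, so that WT day 5 stood above the other pools and the Ccr2-/- level was 69.6% of WT on day 3 and 21.5% on day 5. Ccl12 was at 206, 140, 159 and 95.3 CPM, which is 77.4% and 68.0% of WT. Intervals take every read as independent and leave out the spread between pools. They are too narrow even for counting error, since reads of 1 molecule were counted separately.

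No ligand passed the test over all cells. The log2 differences were 1.18 ± 0.08 (SE) for Ccl2 (edgeR adjusted p = 0.0814, range 3.92e-12 to 0.10 over 8 other settings) and 0.92 ± 0.08 for Ccl7 (adjusted p = 0.0818, range 8.67e-08 to 0.10). They were -1.34 ± 0.50 for Ccl8 (edgeR adjusted p = 0.254, range 0.0735 to 0.567 over 8 other settings) and -0.43 ± 0.12 for Ccl12 (edgeR adjusted p = 0.171, range 0.0637 to 0.185 over 8 other settings). Of 23697 genes tested, edgeR called 0% in either direction although 5247 had an unadjusted p under 0.05, and DESeq2 called 2808. By fold alone, 0.802% of the genes were at least 2-fold higher in Ccr2-/- on both days, and Ccl2 was among them. When every cell was weighted alike, by the mean of the cells' CPM, the log2 ratio of Ccl2 was 0.78 on day 3 and 0.30 on day 5, that of Ccl7 0.37 and 0.31, that of Ccl8 -1.04 and -3.10 and that of Ccl12 -0.63 and -1.25.

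The cells that held the reads differed between the genotypes. Mo-Mac-like cells were 27.4% and 40.5% of the WT cells on days 3 and 5, and 5.11% and 3.41% of the Ccr2-/- cells. Fibroblast-like cells were 21.3%, 25.9%, 33.1% and 24.5% of the cells in pool order. They made up 38.2%, 40.9%, 70.1% and 65.2% of the reads. In the Ccr2-/- pools fibroblast-like cells held 82.1% and 84.7% of the Ccl2 reads, 74.4% and 79.1% of the Ccl7 reads and 60.1% and 60.2% of the Ccl8 reads. Mo-Mac-like cells of these pools still held 84.6% and 81.3% of the Ccl12 reads, and 12.2% and 8.48% of the Ccl2 reads.

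**Figure D2:**
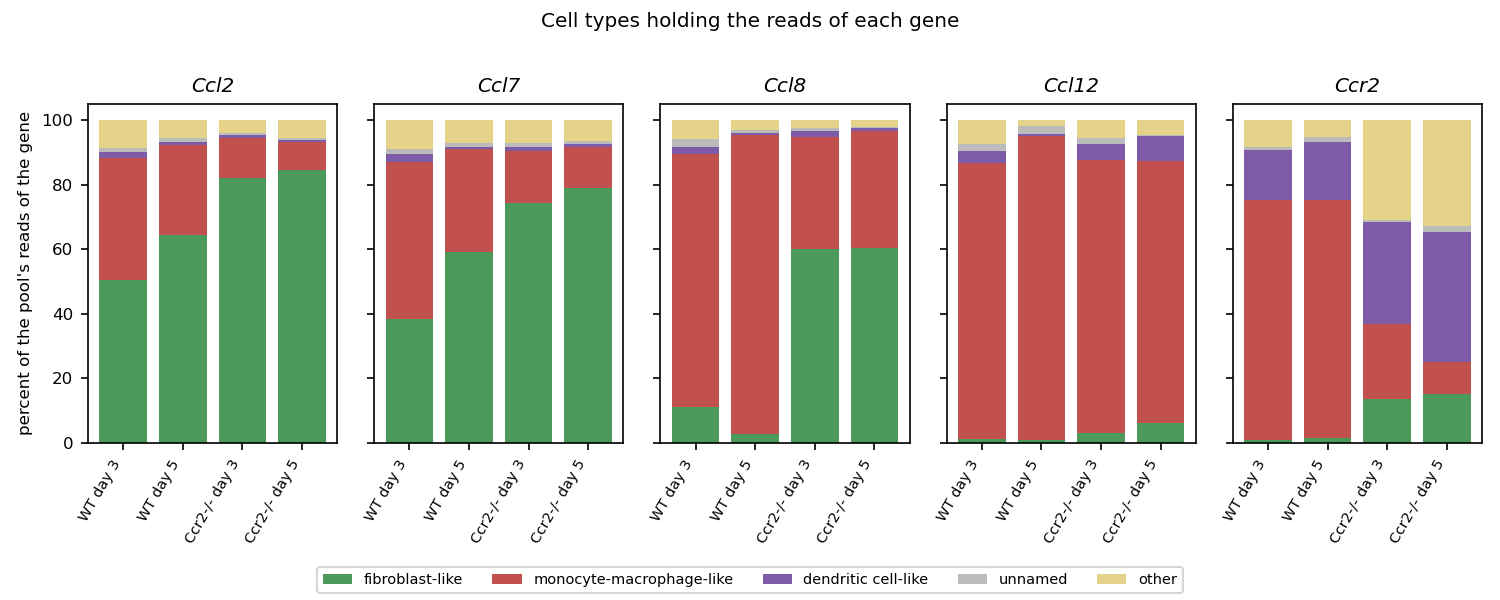
Percent of each gene's reads in a pool held by fibroblast-like, monocyte-macrophage-like, dendritic cell-like, unnamed and other cells, as stacked bars from 0 to 100, with 1 bar per pool and 1 panel per gene. The fibroblast-like share of Ccl8 is 10.9% and 2.76% in WT and 60.1% and 60.2% in Ccr2-/- on days 3 and 5.

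The pool level is the sum over cell types of the share of reads times the level within the type, and each of these parts was exchanged between the genotypes in turn. With the WT make-up of cell types and the Ccr2-/- levels, Ccl2 would be 2.46-fold of WT on day 3 and 2.81-fold on day 5. With the WT levels and the Ccr2-/- make-up it would be 1.09-fold and 1.16-fold. For Ccl7 the levels alone gave 2.13-fold and 3.26-fold, and the make-up alone gave 0.921-fold and 1.09-fold. For Ccl12 the 2 parts went opposite ways, with 3.17-fold and 4.76-fold from the levels and 0.269-fold and 0.174-fold from the make-up. Ccl8 had 1.39-fold and 0.742-fold from the levels and 0.435-fold and 0.216-fold from the make-up. The fibroblast-like cells alone carried 107% and 102% of the Ccl2 difference between the pools on days 3 and 5. Of their difference, 1093 and 615 CPM came from make-up and 1248 and 761 CPM from level. In Mo-Mac-like cells the make-up part of Ccl2 was -1098 and -922 CPM and the level part 923 and 814 CPM. The make-up parts of these cell types thus went opposite ways and largely cancelled in the Ccl2 ratio. The make-up shares are shares of reads, which follow reads per cell as well as cell number. On day 5 fibroblast-like cells were 25.9% of the WT and 24.5% of the Ccr2-/- cells but 40.9% and 65.2% of the reads. Their make-up part on that day thus came without a larger share of cells. Mo-Mac-like cells were 40.5% and 3.41% of the cells on day 5 and 38.6% and 4.63% of the reads. On day 3 they were 27.4% and 5.11% of the cells and 28.0% and 6.19% of the reads.

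**Figure D3:**
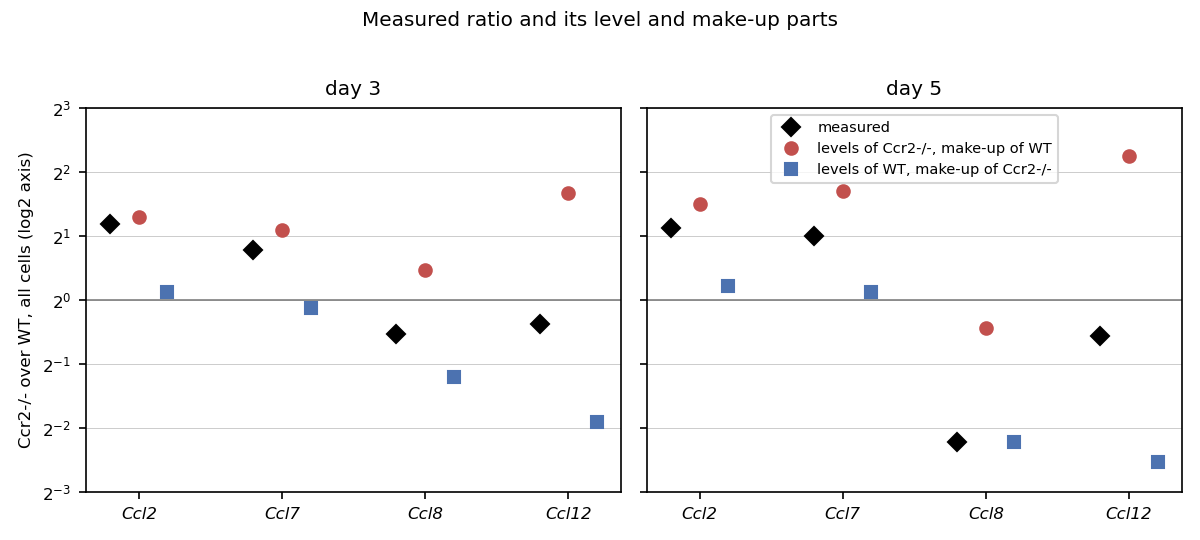
Ratio of Ccr2-/- to WT over all cells on day 3 and day 5 (log2 axis; 1 is no difference) for each ligand, as measured, with only the levels within cell types exchanged and with only the make-up of cell types exchanged. Ccl12 has 3.17-fold and 4.76-fold from the levels against 0.269-fold and 0.174-fold from the make-up.

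In fibroblast-like cells, the stromal cells marked by Pdgfra, Col1a1, Dcn and Lum, 3 ligands were higher in both Ccr2-/- pools than in both WT pools. Ccl2 was at 2271 CPM in WT day 3, 1819 in WT day 5, 4578 in Ccr2-/- day 3 and 3254 in Ccr2-/- day 5, which is 2.02-fold on day 3 (95% counting interval 2.0 to 2.03) and 1.79-fold on day 5 (1.77 to 1.81). Ccl7 was at 2003, 1534, 3652 and 2574 CPM, 1.82-fold and 1.68-fold. Ccl8 was at 683, 477, 1428 and 1407 CPM, 2.09-fold and 2.95-fold. For each of the 3 ligands the Ccr2-/- pools lay above the WT pools on both days. Ccl12 stayed at 3.02 to 8.78 CPM in these cells, near its level in NK cell-like cells (1.34 to 7.80 CPM). Macrophage reads were low here, with Csf1r at 9.97 to 22.2 CPM and C1qa at 1.82 to 5.46 CPM.

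The 3 ligands did not pass the adjusted test in fibroblast-like cells. The log2 difference was 0.93 ± 0.08 (SE) for Ccl2 (edgeR adjusted p = 0.0954, range 4.12e-09 to 0.988 over 12 other settings), 0.81 ± 0.07 for Ccl7 (edgeR adjusted p = 0.0954, range 3.03e-07 to 0.596) and 1.32 ± 0.13 for Ccl8 (edgeR adjusted p = 0.0954, range 8.32e-15 to 0.835). edgeR called 0% of 20074 genes, 4178 genes had an unadjusted p under 0.05, and DESeq2 called 1798 genes, with Ccl2, Ccl7 and Ccl8 among them. By fold, 2.33% of the genes were at least 1.5-fold higher on both days, and these 3 ligands were among them. This cut is lower than the 2-fold cut set for the other comparisons and was given for these cells only. At least 2-fold higher on both days were 0.389% of the genes, among them Ccl8 but not Ccl2 or Ccl7.

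Over the whole fibroblast-like class, more cells of Ccr2-/- skin had a ligand read at equal depth. At 10000 reads per cell, 75.8% of the WT day 3 cells had a Ccl2 read, with 75.3% in WT day 5, 88.1% in Ccr2-/- day 3 and 86.2% in Ccr2-/- day 5. For Ccl8 the shares were 63.0%, 62.2%, 78.0% and 74.1%. The Ccl2 shares were above those of NK cell-like cells in every pool. The reads were unevenly spread over the cells. The tenth of the fibroblast-like cells with the most Ccl2 reads held 55.1% of them in WT day 3, 51.8% in WT day 5, 40.5% in Ccr2-/- day 3 and 46.6% in Ccr2-/- day 5. The median cell had 794, 885, 2730 and 1792 CPM of Ccl2 in the same order. These shares and medians also depend on the mix of the clusters described next.

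Fibroblast-like cells fell into 2 clusters that differed in level. Cluster 1, led by Scara5, had 224, 213, 258 and 196 cells in pool order. Its Ccl2 was at 1233, 1252, 1354 and 1206 CPM in that order, and the pools overlapped. Cluster 2, led by Reg3g, Cxcl5 and Saa3, an acute-phase gene, had 105, 56, 468 and 379 cells, and its Ccl2 was at 3093, 2613, 5387 and 3663 CPM. Ccl8 in cluster 2 was at 1039, 571, 1712 and 1641 CPM, with both Ccr2-/- pools above both WT pools, and in cluster 1 at 233, 410, 294 and 238 CPM. Ccl7 in cluster 1 was at 1052, 1224, 1743 and 1302 CPM and in cluster 2 at 2755, 1967, 4131 and 2828 CPM.

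Within a cluster no ligand passed the test. Ccl2 had a log2 difference of 0.01 ± 0.10 (SE) in cluster 1 (edgeR adjusted p = 0.988) and 0.67 ± 0.09 in cluster 2 (edgeR adjusted p = 0.257), and the difference between these was 0.68 ± 0.14 (edgeR interaction, adjusted p = 0.918). For Ccl8 the values were -0.25 ± 0.28 and 1.14 ± 0.19, with a difference of 1.42 ± 0.43 (edgeR interaction, adjusted p = 0.918), and 0% of 17583 genes were called in that interaction although 926 had an unadjusted p under 0.05. With the WT mix of the 12 finer sub-clusters that both genotypes held kept, the levels within them gave a Ccl2 ratio of 1.57 on day 3 and 1.30 on day 5, and the mix alone gave 1.27 and 1.47. The mix itself is given as no result, because other cells and other genes in the same cells cannot be told apart in it. These splits were added after the data were seen.

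Mo-Mac-like cells of Ccr2-/- skin were few, and Ccl2 and Ccl12 were higher in their summed reads. Ccl2 was at 2329 CPM in WT day 3, 828 in WT day 5, 7722 in Ccr2-/- day 3 (112 cells) and 4592 in Ccr2-/- day 5 (80 cells), so that both Ccr2-/- pools lay above both WT pools, 3.32-fold (95% counting interval 3.28 to 3.35) and 5.54-fold (5.45 to 5.64) within the days. The log2 difference was 2.14 ± 0.20 (SE; edgeR adjusted p = 0.0407, range 4.90e-16 to 0.104 over 13 other settings). Ccl12 was at 630, 341, 2177 and 1674 CPM, 3.46-fold and 4.91-fold, with a log2 difference of 2.09 ± 0.18 (edgeR adjusted p = 0.0236, range 5.69e-17 to 0.628 over 13 other settings). Of 16325 genes, 0.049% were called higher, which was 8 genes. These ratios also hold a change in the mix of cells within the class. With the WT mix kept, the levels within its parts gave Ccl2 ratios of 2.22 on day 3 and 2.89 on day 5. For Ccl12 they gave 1.89 and 1.64. The mix alone gave 1.05 and 1.55 for Ccl2 and 0.962 and 1.58 for Ccl12. Some parts had few Ccr2-/- cells, so these values are rough.

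Ccl7 in Mo-Mac-like cells had a difference of like size that missed the threshold. It was at 3475 CPM in WT day 3, 880 in WT day 5, 8879 in Ccr2-/- day 3 and 5833 in Ccr2-/- day 5, and the pools did not overlap (log2 2.09 ± 0.32 SE, edgeR adjusted p = 0.0789, range 3.81e-10 to 0.275 over 13 other settings). By fold, 1.79% of the genes were at least 2-fold higher on both days, with Ccl2, Ccl7 and Ccl12 among them. Ccl8 was at 6706, 16948, 9319 and 11958 CPM, with the Ccr2-/- pools between the WT pools (log2 0.03 ± 0.23 SE, edgeR adjusted p = 0.971, range 0.301 to 0.999 over 13 other settings). Its sign turned under 8 of these settings.

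The ligands also differed between the days in Mo-Mac-like cells. From day 3 to day 5 Ccl8 was 2.53-fold in WT and 1.28-fold in Ccr2-/-. Ccl7 was 0.253-fold in WT and 0.657-fold in Ccr2-/-, and Ccl2 was 0.356-fold and 0.595-fold. These are ratios of 1 pool to 1 pool with no test. In fibroblast-like cells Ccl2 was 0.801-fold in WT and 0.711-fold in Ccr2-/- over the same days.

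One sub-cluster of Mo-Mac-like cells stood apart. Sub-cluster 8 had 61 cells with a median of 154360 reads, and its leading genes were the fibroblast genes Dpt and Myoc and the cell cycle genes Ccna2 and Ube2c. It had 9, 10, 25 and 17 cells in pool order, and held 41.8% and 38.8% of the Mo-Mac-like Ccl2 reads and 52.5% and 60.4% of the Ccl12 reads of the Ccr2-/- pools. Col1a1, a collagen of fibroblasts, was at 3600 and 12137 CPM in these cells in WT day 3 and day 5 and at 570 and 143 CPM in Ccr2-/- day 3 and day 5, whereas fibroblast-like cells had 8533 to 16541 CPM. C1qa, a complement gene of macrophages, was at 817, 228, 1395 and 1808 CPM in the same cells, and the part of these deep cells in the ligand levels was not tested beyond leaving them out. Without sub-cluster 8 the within-day ratios of Ccl2 were 3.41-fold and 6.37-fold and those of Ccl12 were 2.91-fold and 3.68-fold, both in the same direction. The calls were lost, with edgeR adjusted p = 0.104 for Ccl2 (log2 2.26 ± 0.23 SE) and 0.0833 for Ccl12 (log2 1.75 ± 0.15 SE), against 0.00637% of 15690 genes called higher. Ccr2 was still lower (log2 -4.03 ± 0.29 SE, edgeR adjusted p = 0.0427), where 0.0446% of the genes were called lower.

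The mix of Mo-Mac-like subsets differed between the genotypes, and the early CMDM-like and resident-like subsets were tested on their own. Classical monocyte-derived macrophages (CMDMs) arise in the skin from incoming monocytes and pass an early and a late stage. The early CMDM-like subset, named from 4 of its 5 markers (a list that holds Pdcd1lg2, Arg1 and Retnla), had 110, 19, 39 and 26 cells in pool order. Its Ccl2 was at 3939, 1507, 11919 and 10079 CPM, with no overlap, and its Ccl12 was at 984, 657, 2642 and 2523 CPM. Both rose in Ccr2-/- (log2 2.26 ± 0.27 SE and 1.78 ± 0.21 SE, edgeR adjusted p = 0.0356 for each), where 0.0676% of 10357 genes were called higher. Ccl7 was at 6349, 2862, 14896 and 15347 CPM (log2 1.92 ± 0.27 SE, edgeR adjusted p = 0.0841). Ccl8 was at 10003, 15994, 9816 and 12306 CPM, and the pools overlapped (log2 -0.11 ± 0.17 SE, edgeR adjusted p = 0.899). Ccr2 of this subset was at 475, 727, 17.4 and 26.0 CPM in pool order and fell (log2 -4.69 ± 0.29 SE, edgeR adjusted p = 0.00355), where 0.0483% of the genes were called lower.

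Resident-like macrophages, named from a list that holds Lyve1, Selenop and Folr2, had 55, 187, 33 and 24 cells. They joined sub-clusters 3 and 7, and sub-cluster 3 gave 115 of these cells in WT day 5 but 9 in WT day 3 and 3 in Ccr2-/- day 5. On WT day 5 the former had less C1qa (902 CPM) than the latter (3067 CPM). The genotype differences of this class, the called ones included, thus also hold a change in its mix. Sub-clusters 3 and 7 were not tested apart. Ccl2 of the whole resident-like class was at 1864 CPM in WT day 3, 868 in WT day 5, 4534 in Ccr2-/- day 3 and 1270 in Ccr2-/- day 5. The Ccr2-/- day 5 pool lay below WT day 3, but within each day Ccr2-/- was higher, and Ccl2 passed the test (log2 0.94 ± 0.19 SE, edgeR adjusted p = 0.0232). Ccl7 was at 2131, 709, 5132 and 1523 CPM and rose (log2 1.21 ± 0.17 SE, edgeR adjusted p = 7.28e-04), where 0.147% of 11566 genes were called higher. Ccl12 was at 421, 295, 1204 and 245 CPM (log2 0.65 ± 0.31 SE, edgeR adjusted p = 0.628) and Ccl8 at 9175, 20890, 7192 and 14743 CPM (log2 -0.41 ± 0.13 SE, edgeR adjusted p = 0.301). Ccr2 of the resident-like class was at 192, 460, 3.16 and 11 CPM and fell (log2 -5.57 ± 0.38 SE, edgeR adjusted p = 3.72e-08), where 0.363% of the genes were called lower. Its WT day 5 level was near the 469 CPM of late CMDM-like cells of that pool. The difference between the subsets did not pass the test for any ligand, with 1.30 ± 0.38 for Ccl2 (early CMDM-like minus resident-like, edgeR interaction, adjusted p = 0.606), and 0.0163% of 12242 genes were called. The unnamed sub-clusters 4 and 8 together had 36, 65, 29 and 21 cells in pool order and were not tested on their own. Their Ccl2 in Ccr2-/- was 3.0-fold that of WT on day 3 and 4.07-fold on day 5, and their Ccl12 3.93-fold and 4.63-fold. The remaining named subsets were not compared, since Ccr2-/- skin had 6 and 6 monocyte-like cells, 4 and 2 monocyte-derived DC-like cells and 1 and 1 late CMDM-like cells on days 3 and 5.

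**Figure D4:**
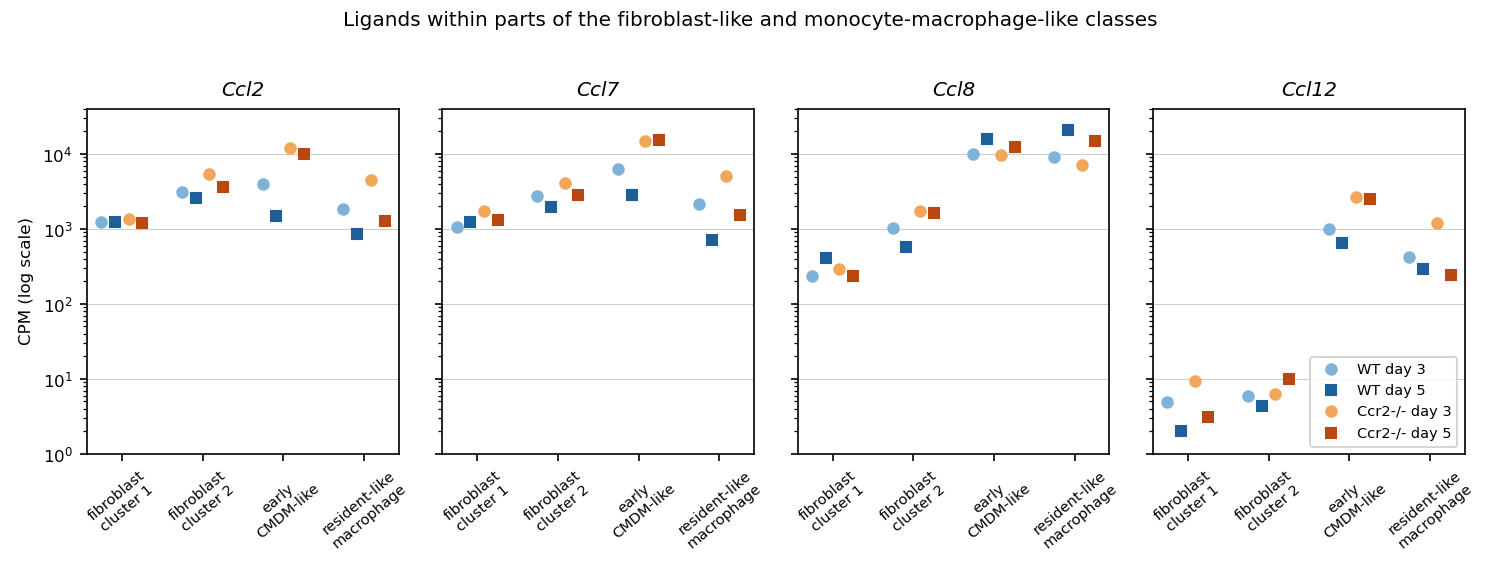
Level of the ligands (CPM of summed reads, log axis) in the early CMDM-like and resident-like subsets and in fibroblast-like clusters 1 and 2, with 1 point per pool. Ccl2 in the early CMDM-like subset is at 11919 and 10079 CPM in Ccr2-/- against 3939 and 1507 CPM in WT, while in cluster 1 the 4 pools lie between 1206 and 1354 CPM.

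Whether Mo-Mac-like and fibroblast-like cells differed in their response was tested by an interaction of genotype and cell type, which was added after the data were seen. The genotype difference of Ccl2 was larger in Mo-Mac-like cells by 1.24 ± 0.27 on the log2 scale (SE; edgeR interaction, adjusted p = 0.325), that of Ccl7 by 1.30 ± 0.45 (edgeR adjusted p = 0.435) and that of Ccl12 by 1.20 ± 0.41 (edgeR adjusted p = 0.427). That of Ccl8 was smaller, at -1.26 ± 0.34 (edgeR adjusted p = 0.362). None passed, and 0% of 19409 genes were called although 2071 had an unadjusted p under 0.05. The test thus does not show that the 2 cell types responded unequally, nor that they responded alike.

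Smaller cell types also held ligand reads. Ccl2 of lymphatic endothelial cell-like cells was at 213 CPM in WT day 3, 231 in WT day 5, 1898 in Ccr2-/- day 3 and 1177 in Ccr2-/- day 5 (22 to 55 cells), and it rose (log2 2.68 ± 0.37 SE, edgeR adjusted p = 0.0317, range 2.44e-10 to 0.256 over 10 other settings), where 0.0552% of 10874 genes were called higher. A single cell held 83.9% of these reads in Ccr2-/- day 5. The WT day 3 lymphatic cells also held many fibroblast reads, with Col1a1 at 9002 CPM and Dcn at 8833 CPM. In the other pools Col1a1 was at 225 to 739 CPM and Dcn at 506 to 1130 CPM. The part of these reads in the calls was not tested. DC-like Ccl2 was at 408, 160, 1611 and 451 CPM and rose (log2 1.75 ± 0.18 SE, edgeR adjusted p = 0.0357, range 1.31e-11 to 0.770 over 10 other settings), where 0.0372% of the genes were called higher. With the reads of each gene's own top cell left out in each pool, this call was lost (log2 1.60, edgeR adjusted p = 0.0961). The DC-like Ccl12 level in Ccr2-/- rested on 1 cell with 73.3% and 83.0% of the reads on days 3 and 5.

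Perichondrial cell-like cells, the cells around the ear cartilage, had Ccl8 at 933 CPM in WT day 3, 4119 in WT day 5, 366 in Ccr2-/- day 3 and 193 in Ccr2-/- day 5. Both Ccr2-/- pools were below both WT pools, opposite to fibroblast-like cells, but the difference did not pass the test (log2 -2.86 ± 0.66 SE, edgeR adjusted p = 0.433, range 1.39e-38 to 0.704 over 10 other settings). A single cell held 30.4% to 63.9% of the Ccl8 reads of a pool, and 0% of 14266 genes were called, with 1031 at an unadjusted p under 0.05. Their Ccl2 was at 889, 221, 1437 and 1339 CPM (log2 1.66 ± 0.40 SE, edgeR adjusted p = 0.437, range 2.23e-14 to 0.704 over 10 other settings). Basophil-like cells had Ccl2 at 2765 CPM in WT day 3, where 1 of 28 cells held 64.0% of the reads, and at 58.1 to 836 CPM in the other pools. Ccl2 in NK cell-like cells, at 47.1 to 58.8 CPM, had a log2 difference of -0.01 ± 0.48 (SE; edgeR adjusted p = 1.0).

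Among the 6 genes of the Ccl2 chemokine cluster (Ccl1, Ccl2, Ccl7, Ccl8, Ccl11 and Ccl12), 5 were tested in fibroblast-like cells and none was called, with a median log2 difference of 0.93 beside 0.002 over all genes tested, and 5 of 5 above 0. Ccl11, an eosinophil attractant (eotaxin) and the neighbour of Ccl7, was at 795, 514, 2503 and 1459 CPM in these cells in pool order (log2 1.59 ± 0.08 SE, edgeR adjusted p = 0.0954). In Mo-Mac-like cells 2 of 5 were called higher, Ccl2 and Ccl12, with a median of 2.09 beside -0.04 over all genes, where 0.049% of 16325 genes were called higher. Both calls were lost without sub-cluster 8 (edgeR adjusted p = 0.104 and 0.0833) and with the mitochondrial limit of 10% (edgeR adjusted p = 0.0611 for each). Of the 9 receptors and scavengers of these ligands, 6 were tested in Mo-Mac-like cells and 1 was called, Ccr2 itself, where 0.0551% of the genes were called lower. Ccr1, which binds other CC chemokines and in part these, was at 131 to 276 CPM in Mo-Mac-like cells, with a log2 difference of 0.18 ± 0.26 (SE; edgeR adjusted p = 0.797). The median of the 6 was -0.83. In fibroblast-like cells 8 were tested and none was called, with a median of -0.71.

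Ackr2, an atypical receptor of lymphatic vessels that takes up inflammatory CC chemokines, was called in lymphatic endothelial cell-like cells. It had 12 reads in WT day 3 (7.69 CPM), 2 in WT day 5 (2.34 CPM), 318 in Ccr2-/- day 3 (155 CPM) and 588 in Ccr2-/- day 5 (248 CPM). Both Ccr2-/- pools lay above both WT pools, and the gene rose (log2 5.12 ± 0.68 SE, edgeR adjusted p = 0.0317), where 0.0552% of 10874 genes were called higher. With the mitochondrial limit of 10%, edgeR called 0 of 10573 genes in these cells (562 at an unadjusted p under 0.05), so this call was lost. The WT pools had 30 and 22 of these cells and the Ccr2-/- pools 55 and 46. Those of WT day 3 held many fibroblast reads, as given above.

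The other lists chosen for the pathway held no called gene in these 2 cell types. Of the NF-kB response genes, 14 were tested in fibroblast-like cells, with a median log2 difference of 0.36 and 9 above 0, and 13 in Mo-Mac-like cells, with a median of -0.47 and 0 above 0. Mast cell-like cells had 3 of 12 called higher, where 0.286% of 9788 genes were called higher. These were the chemokines Cxcl2 (log2 2.65) and Cxcl5 (3.02) and the cytokine Il6 (3.14). The WT pools had 10 of these cells each, and the median over all genes tested was 0.30. Higher calls ran from 5 (gating) and 8 (hashtag ratio of 10, DESeq2) to 28. Cxcl5 also led fibroblast-like cluster 2, and reads carried over from other cells were not tested. Of the interferon-gamma response genes, 12 were tested in fibroblast-like and 12 in Mo-Mac-like cells, with medians of 0.32 and 0.05. Of 12 other genes of monocyte trafficking and survival, 12 were tested in fibroblast-like cells, with a median of -0.34, and 9 in Mo-Mac-like cells, with a median of -0.59.

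Ccl2 and Ccl7 followed each other across cell types. Over 49 units of pool and cell type (15 cell types of at least 20 cells, which share a library and differ in depth), the Pearson r of log2(CPM + 1) was 0.93 between Ccl2 and Ccl7, 0.65 between Ccl2 and Ccl8, 0.75 between Ccl8 and Ccl12 and -0.18 between Ccl2 and Ccr2, given as a description. Next to Ccl7, the genes most like Ccl2 were Pmp22, Pdpn, Morf4l2 and Vat1 (r of 0.76 to 0.78), and those most like Ccl7 were Morf4l2, Ecm1, Igf1 and Timp1 (0.73 to 0.76). Ccl8 was most like the lysosomal genes Ctsb, Lamp1 and Grn, with Scamp5 and Ifi202b (0.83 to 0.88). Ccl12 was most like Pf4, Mrc1, Snx2, Arg1 and Celf4 (0.78 to 0.82). Ccr2 was most like Ms4a6b, Ms4a4c, Ly6c2, Dok2 and H2-DMa (0.80 to 0.85).

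Within fibroblast-like cells the reads of Ccl2 and Ccl7 also met in the same cells. At 10000 reads per cell, 83.0% of the WT day 3 cells with a Ccl7 read had a Ccl2 read as well, against 53.8% of those without. In Ccr2-/- day 3 the shares were 90.9% and 54.5%. Of the 347 Mo-Mac-like cells of WT day 3 with a Ccl2 read, 53.9% had a Ccl12 read, against 11.9% of the 67 without. In Ccr2-/- day 3 the shares were 80.6% of 103 cells and 28.6% of 7.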

How the data were processed

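Skin cells were profiled with TAS-Seq on the BD Rhapsody system as 1 cDNA library and 1 hashtag library, with 10000 cells loaded. The authors deposited raw read counts per gene and per hashtag for each barcode; reads were counted, not molecules. Per the labels, cutadapt, Bowtie2 and GRCm38.p6 were used.

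A barcode was given to a pool when the 4 hashtags together had at least 10 reads and the leading one was at least 3 times the next. For this ratio the reads (pseudocount 1) were divided by the total of each hashtag. Barcodes were kept with at least 200 genes and at most 20% mitochondrial reads. Left out were 1835 barcodes, and 9 other hashtag columns were not used. Doublets within a pool were not removed by a caller. Cells were clustered with scanpy 1.11.5 and leidenalg 0.10.2 (Python 3.11.15; 2000 variable genes without the 5 genes and the pathway lists, 30 components, 20 neighbours, resolution 1) and named from marker lists; marker gating of single cells gave the cluster's name in 76.2% of cells. A cell type was tested where every pool had at least 10 cells. Reads summed per pool and cell type were tested with edgeR 4.0.16 (R 4.3.3; TMM, filterByExpr, day and genotype as terms), with the scripts tested on simulated data. Alternatives were a hashtag ratio of 10, a mitochondrial limit of 10%, thinning to 10000 reads, resolutions 0.5 and 2, single-cell gating and library sizes alone. Others were DESeq2 1.42.0, no filter on low counts, and leaving out each gene's top cell. In the last, each gene lost the reads of the cell that held most of them in a pool and cell type. That cell could differ between genes, so no cell was removed as a whole. The splits by subset and cluster, the removal of sub-cluster 8 and the interaction fits were chosen after seeing the data. Intervals are exact at 95% for independent reads and leave out the spread between pools. They are too narrow even for counting error, since reads and not molecules were counted. Pools hold cells of an unknown number of mice, so p-values measure the spread between pools, which here includes any change of the genotype difference with the day. Genes named besides the 5 were up to 3 called genes of each list, list genes set beside a member, the 5 genes most like each member (at least 10 CPM in a unit) and marker or leading genes. The genes and lists were chosen with earlier results of these data known. Sequences were read with biopython 1.88, and figures drawn with matplotlib 3.10.9.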

Additional observations from a re-analysis of the deposited data

Results flagged for a closer look

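Ccl8 moved in opposite directions in the 2 kinds of connective tissue cells, with every pool of each in its own direction. In fibroblast-like cells the Ccr2-/- level was 2.09-fold of WT on day 3 and 2.95-fold on day 5. In perichondrial cell-like cells it was 0.392-fold and 0.0470-fold. The difference between them was -4.13 ± 1.05 on the log2 scale (SE; edgeR interaction, adjusted p = 0.656), so it did not pass the test, and 0 of 17878 genes were called, with 1333 at an unadjusted p under 0.05. In fibroblast-like cluster 1 alone, Ccl8 was 1.26-fold on day 3 and 0.582-fold on day 5. A single cell held much of the perichondrial cell-like Ccl8 reads in each pool, as given above.

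Barcodes that entered no comparison, because they carried several hashtags, few hashtag reads or many mitochondrial reads, also held reads of the 5 genes. They held 12.9% of all Ccl2 reads, 12.4% of the Ccl7 reads, 8.82% of the Ccl8 reads, 7.57% of the Ccl12 reads and 6.08% of the Ccr2 reads. These were 1835 of the 8953 barcodes. Their levels were 2306 CPM for Ccl2, 1993 for Ccl7, 1446 for Ccl8, 69.8 for Ccl12 and 48.5 for Ccr2. None was above the range of the kept pools over all cells, and Ccl8 and Ccl12 were below it.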

How the results depend on the processing

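In fibroblast-like cells Ccl2, Ccl7 and Ccl8 passed the threshold under thinning (log2 0.86, 0.71 and 1.25), DESeq2 (0.93, 0.82 and 1.32) and no filter (0.98, 0.86 and 1.36), and in cluster 1 alone Ccl8 was at -0.25. In Mo-Mac-like cells Ccl2, Ccl12 and Ccr2 lost the call with the mitochondrial limit of 10% (2.14, 2.16 and -4.0), Ccl2 and Ccl12 without sub-cluster 8 (2.26 and 1.75), and Ccl12 in resident-like macrophages alone (0.65). Ccl7 there gained it under thinning (2.3), resolution 0.5 (2.1), resolution 2 (2.07), DESeq2 (2.1), no filter (2.06) and in resident-like macrophages alone (1.21). Ccl8 there turned to -0.066 (hashtag ratio of 10), -0.026 (resolution 2), -0.066 (single-cell gating), -0.015 (library sizes), -1.83e-04 (no filter), -0.13 (without sub-cluster 8), -0.11 (early CMDM-like) and -0.41 (resident-like). Over all cells, DESeq2 and no filter called Ccl2 (1.19 and 1.19), Ccl7 (0.93 and 0.93) and Ccr2 (-4.77 and -4.77), and thinning called Ccr2 (-4.47). DC-like Ccl8 turned under the hashtag ratio of 10 (-0.97), thinning (-0.60), gating (-0.76) and without each gene's top cell (-0.40). DC-like Ccl12 turned under the hashtag ratio of 10 (-0.63), the mitochondrial limit (-0.067) and resolution 0.5 (-0.059). Mast cell-like Ccl2 turned under gating (-0.23), and mast cell-like Ccl7 under gating (-0.19) and without each gene's top cell (-0.066). The cause was not tested.

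Against 0 genes called in fibroblast-like cells, thinning called 1644, DESeq2 1798 and no filter 669. Against 17 in Mo-Mac-like cells, the hashtag ratio of 10 called 27, the mitochondrial limit of 10% 1, thinning 238, resolution 0.5 362 and resolution 2 169. Gating called 110, library sizes 60, DESeq2 685, no filter 917 and leaving out each gene's top cell 49. Leaving out sub-cluster 8 called 8, and resident-like macrophages alone had 59. Against 0 over all cells, thinning called 831, DESeq2 2808 and no filter 297. Of the 198 within-day ratios under other settings, 198 kept their direction. Of these, 46 lay within the counting interval of the main ratio and 152 lay outside it. The DC-like Ccl2 call was lost under 7 of 10 settings and the lymphatic Ccl2 call under the mitochondrial limit and gating. With 1 pool per genotype and day, leaving out a pool leaves no residual degrees of freedom and was not run. No paired analysis was possible because the pools carry no replicate numbers.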
